A study of Bos taurus with 29 samples.

Results

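NKX2-1, FOXB1 and VAX1 are transcription factors of the developing hypothalamus, and the mRNA expression of these 3 genes was examined among 24596 genes measured by RNA-Seq in the remaining hypothalamus, the tissue left once the arcuate nucleus (ARC) had been taken out. They were followed by their Ensembl identifiers, ENSBTAG00000000541 for NKX2-1, ENSBTAG00000019114 for FOXB1 and ENSBTAG00000013875 for VAX1. Tissue came from 29 Angus X Holstein-Friesian heifer calves slaughtered at 21 weeks of age. The HI plane of nutrition (n = 14) was set for a growth of 1.2 kg/d, with 1.5 kg of milk replacer daily and concentrates without restriction, then concentrates and hay without restriction. The MOD plane (n = 15) was set for 0.5 kg/d, with 0.5 kg of milk replacer and 1 kg of concentrates daily, then 1 kg of concentrates and hay. The milk phase took 8 weeks and the phase after weaning 11 weeks. The labels place the start of the diets at week 2 of age, whereas the methods of the study give another week. The labels name no allele and no agent beyond the diet. The paper cites a GnRH challenge before slaughter from an earlier report on the growth of these calves. Calves were selected by the study for a weight gain close to the mean of their diet.

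NKX2-1 is a homeodomain protein that specifies the ventral forebrain and basal hypothalamus, and it is also known for its roles in the thyroid and lung. FOXB1 is a forkhead protein expressed in the mammillary region of the caudal hypothalamus, and VAX1 is a homeodomain protein of the anterior ventral forebrain and optic stalk. AVP and OXT encode the precursors of vasopressin and oxytocin, made by magnocellular neurons of the supraoptic and paraventricular nuclei, and HCRT encodes the precursor of the orexins, made in the lateral hypothalamus. In whole tissue, fewer cells of a type and less mRNA per cell cannot be told apart.

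Between 11820640 and 17206435 reads per calf were recovered from the deposited values (median 13723597), and 1 read was worth 0.0593 to 0.0929 CPM, the unit of the deposited values, which are read counts scaled to the TMM-adjusted library size. The libraries of MOD calves 1689, 1395 and 2551 and HI calf 2120 lay apart from the rest, with mean log2 distances to the other libraries of 3.13 to 3.51. Among the 25 other calves the largest such distance was 2.44. Of these 4, calves 1689, 2120 and 2551 had normalisation factors of 0.795 to 0.875 and KMT2A at 0.238 to 2.14 CPM, against a median of 31.3 CPM in the 25 others. For results that rest on these libraries, values without them are given where they were computed. Of the 2 pituitary genes that could be named, PRL was at 0 in 2 calves and reached 46.8 CPM, and CGA ranged from 0.191 to 5.53 CPM. AGRP, a defining peptide of the ARC, was detected in 6 of 29 calves and reached 0.153 CPM, whereas POMC was detected in all 29 at 11.2 to 94.7 CPM (at most 35.9 CPM without the 4 libraries apart).

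NKX2-1 had a median of 11 reads, with 10 or more reads in 15 of 29 calves, and was high in a few. It had 0 reads in 6 calves, 3 on each diet, a count that allows up to 3 reads. In HI the lowest value was 0 CPM, the median 0.687 and the highest 2.99, in calf 986. In MOD the lowest value was 0 CPM, the median 0.737 and the highest 15.0, in calf 2532, with 236 reads. Calf 911 followed at 11.6 CPM (152 reads, exact 95% Poisson interval 9.84 to 13.6, for counting error only), then calves 2537 at 4.49, 3622 at 4.23 and 1689 at 3.42 CPM. These 5 MOD calves lay above every HI calf, while the lower parts of both groups overlapped, the MOD median having 7 HI calves on either side of it. The 2 highest calves held 62.0% of the summed NKX2-1 level of the MOD group.

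FOXB1 was detected in all 29 calves, with 17 to 125 reads. In HI it ranged from 1.58 CPM in calf 2120 to 7.19 in calf 2535 with a median of 5.28, and in MOD from 2.14 in calf 1689 to 8.94 in calf 981 with a median of 5.02. The groups overlapped almost fully, and 3 MOD calves lay above the highest HI calf. The lowest 3 calves of all were 2120, 1689 and 2551 (1.58, 2.14 and 2.15 CPM), which are the 3 libraries with low normalisation factors, followed by calf 911 at 2.37 CPM.

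VAX1 was detected in 12 of 29 calves, 6 on each diet, and had 0 reads in 8 HI and 9 MOD calves. The highest HI value was 0.383 CPM in calf 986 (5 reads). In MOD, calf 2532 had 0.956 CPM (15 reads) and calf 911 0.458 CPM (6 reads). The calf with the most NKX2-1 was therefore also the calf with the most VAX1, and the second was the same for both genes. No other calf had more than 6 VAX1 reads, so that the counting error of each single value is large.

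**Figure D1:**
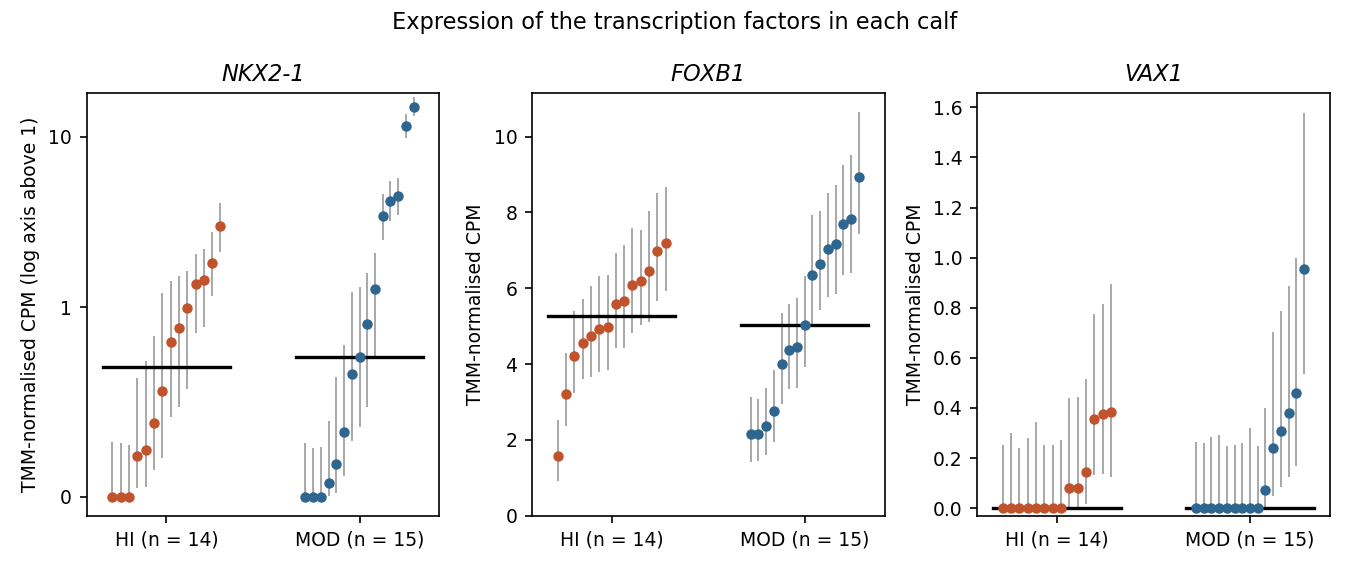
TMM-normalised CPM of NKX2-1, FOXB1 and VAX1 in each calf, sorted within diet, with exact 95% Poisson intervals of the read count (grey) and the median of each diet (black line); the NKX2-1 axis is linear up to 1 and logarithmic above. In MOD, 5 calves lie above the highest HI value of NKX2-1 (2.99 CPM), FOXB1 overlaps between diets, and the VAX1 median is 0 on both.

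The effect of diet on each gene was tested with limma over 19525 genes with at least 1 read, on log2(CPM + 1), a scale that understates the change of low genes. Calls required both a fold change above 1.5 and an adjusted p-value below 0.1. Limma called 0% of the 19525 genes (0 genes), while 1.89% (369 genes) had an unadjusted p-value under 0.05. DESeq2 and the quasi-likelihood test of edgeR also called 0 genes, and the exact test of edgeR called 2. None of the 3 transcription factors passed the bound on the adjusted p-value under any of these tests. The study called NKX2-1 lower in HI in this tissue and placed it in a gene list chosen on these samples. That call came from an edgeR exact test after a filter on low genes. The direction of NKX2-1 here is therefore not independent evidence. In the exact test over 19525 genes, NKX2-1 had a log2 fold change of -1.76 (exact test p = 0.0199) and did not pass after adjustment. With limma over 14021 genes above 1 CPM in at least 10 calves, its adjusted p was 0.999. Its mean was 0.838 ± 0.851 CPM in HI (SD, n = 14) and 2.86 ± 4.56 in MOD (SD, n = 15), a log2 difference, HI minus MOD, of -0.52 with an SE of 0.38 (limma p = 0.18, adjusted p = 0.999). On recovered reads the log2 fold change was -1.76 in the quasi-likelihood test of edgeR (p = 0.0276, adjusted p = 0.997), and with limma-voom and sample quality weights it was -0.08 (p = 0.934, adjusted p = 0.987). Calves 2532 and 911, both MOD and the highest in NKX2-1, were chosen for leaving out after seeing the data. Their removal must shrink the difference. Without them the limma difference was -0.13, and it was -0.32 without calf 2532 alone.

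FOXB1 averaged 5.17 ± 1.51 CPM in HI (SD, n = 14) and 5.26 ± 2.28 in MOD (SD, n = 15). Its log2 difference was 0.03 with an SE of 0.19 (limma adjusted p = 0.999), and the sign turned to -0.03 in edgeR and DESeq2 on recovered reads. VAX1 averaged 0.101 ± 0.153 CPM in HI and 0.161 ± 0.272 in MOD (SD, n = 14 and 15). Its log2 difference was -0.06 with an SE of 0.09 (limma adjusted p = 0.999). It was 0.03 without calves 2532 and 911, both MOD and the highest in VAX1.

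The deposited libraries carry a file-name prefix from 6 to 10, each holding calves of both diets. Within prefix, the log2 difference of NKX2-1 was 0.16, 0.07, 0.18, -2.18 and -0.33 from prefix 6 to 10, so that it was negative in 2 of 5 prefixes and large in prefix 9, which holds calves 2532 and 2537. For FOXB1 the differences were 0.28, -0.15, 0.22, -0.57 and 0.59. Those of VAX1 were 0.07, 0.08, 0.11, -0.43 and -0.01.

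The spread within each diet was compared next. The mean absolute deviation of NKX2-1 from the median of its diet was 0.507 in HI and 1.02 in MOD on the log2 scale (permutation test, two-sided p = 0.0657). For FOXB1 it was 0.291 and 0.484 (permutation p = 0.0994). VAX1 has a median of 0 on both diets, so its deviation equals its level and adds nothing to the diet difference. Neither test passed 0.05 over all calves. Without the 4 libraries apart, the permutation p-values were 0.0497 for NKX2-1 and 0.0243 for FOXB1, both unadjusted.

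The relation of each transcription factor to the neuropeptide precursors was measured over the 29 calves with Pearson's r on log2(CPM + 1) and Spearman's rho, each with 100000 permutations, and p-values were adjusted over the family of 12 relations that also holds the 3 pairs of transcription factors. NKX2-1 rose with AVP (r = 0.449, permutation adjusted p = 0.0444; rho = 0.569, adjusted p = 0.0103). With OXT, r was 0.390 (permutation adjusted p = 0.0847) and rho 0.526 (adjusted p = 0.0106). With HCRT, r was 0.364 (permutation adjusted p = 0.0977) and rho 0.462 (adjusted p = 0.0241). Without the 4 libraries apart, which include calf 1689, the highest in HCRT, the rho with HCRT was 0.439 and no longer passed (permutation adjusted p = 0.0569), while those with AVP and OXT were 0.602 and 0.600 (adjusted p = 0.0049 for both). A rho of 0.5 or higher was found for 1.04% of 16573 genes with AVP, 1.24% with OXT and 0.278% with HCRT, and one of -0.5 or lower for 0.314%, 0.235% and 0.193%. NKX2-1 and these precursors are all in the list that the study chose on these samples. The shares over all genes do not allow for that choice. AVP and OXT are related genes that lie next to each other in the bovine RefSeq table of assembly ARS-UCD2.0, and whether they share reads was not tested.

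The 2 calves highest in NKX2-1 were among the calves low in HCRT, below its median of 0.816 CPM. Calf 2532 had 0.191 CPM of HCRT and calf 911 had 0.153 CPM. The next calves in NKX2-1 were high, with 56.6 CPM in calf 2537, 138 in calf 3622 and 192 in calf 1689, the highest of all. When calves 2532 and 911, the farthest from the NKX2-1 median, were left out, r of NKX2-1 with HCRT rose to 0.791 (n = 27, permutation adjusted p = 0.00024) and rho to 0.711. These 27 calves include calf 1689, one of the 4 libraries apart. Without those 4 libraries alone, r was 0.315 (n = 25, permutation adjusted p = 0.242), and r without both sets of calves was not computed. PMCH, the precursor of melanin-concentrating hormone and likewise a lateral hypothalamic transcript, showed the same calves high and low, with 0.765 and 0.688 CPM in calves 2532 and 911 and 261, 203 and 389 CPM in calves 2537, 3622 and 1689. For AVP and OXT, r with NKX2-1 was 0.397 and 0.408 without the 2 calves (permutation adjusted p = 0.0637 for both). The value with AVP changed little while its adjusted p crossed the threshold, as it also did in 14 of 29 fits without 1 calf, and rho was 0.522 and 0.474.

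**Figure D2:**
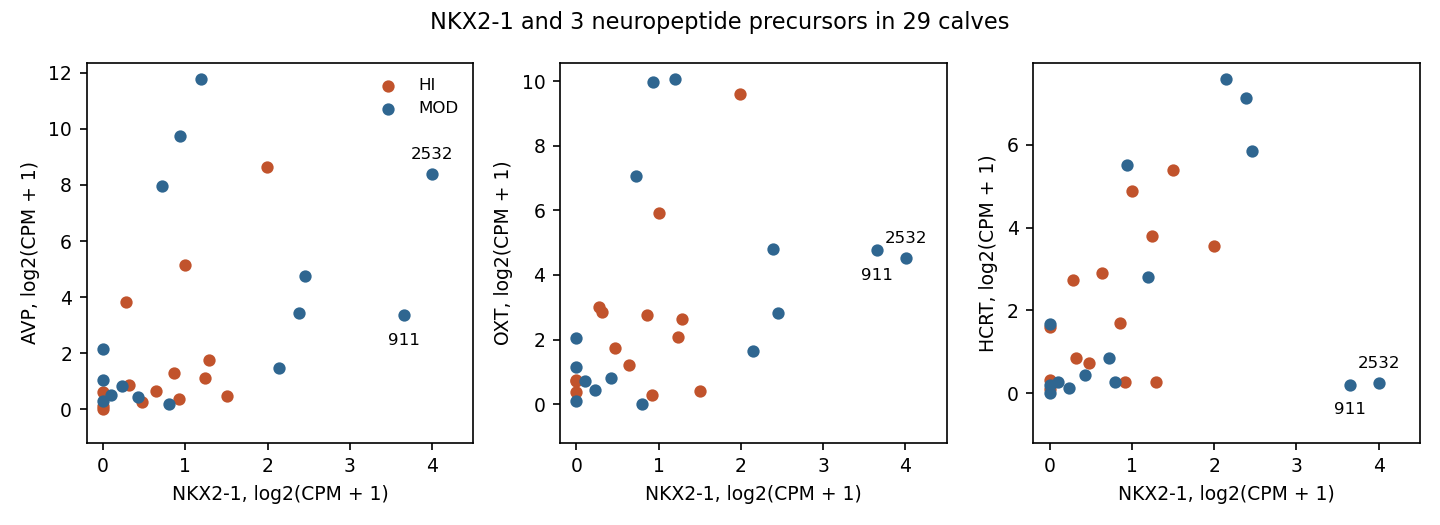
NKX2-1 against AVP, OXT and HCRT in 29 calves, each axis in log2(CPM + 1), with HI in orange and MOD in blue. Calves 2532 and 911 are highest in NKX2-1 and low in HCRT (0.191 and 0.153 CPM), and among the other 27 calves r with HCRT is 0.791.

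Within diets, r of NKX2-1 with AVP was 0.569 in HI and 0.367 in MOD, with OXT 0.578 and 0.309, and with HCRT 0.570 and 0.318. Within the 4 prefixes of 6 calves, r with AVP was 0.563, 0.278, -0.01 and 0.597, and r with HCRT was 0.117, 0.356, 0.668 and 0.149, from prefix 6 to 9. No relation within a diet or prefix passed an adjusted p-value of 0.05 over the 72 computed. The smallest exact p that 6 calves allow is 0.00139, or 0.1 when multiplied by 72, so that no relation within a prefix could have passed on its own, and prefix 10 holds 5 calves and gave no value.

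VAX1 rose with AVP (r = 0.626, permutation adjusted p = 0.00618; rho = 0.537, adjusted p = 0.0106) and with OXT (r = 0.589, permutation adjusted p = 0.00756; rho = 0.568, adjusted p = 0.0103). Both relations held without calves 2532 and 911, at r = 0.619 and 0.704 (permutation adjusted p = 0.00624 and 0.00174). Calves 986 and 1392, with 5 VAX1 reads each, had 400 and 866 CPM of AVP and 778 and 1016 CPM of OXT. Calf 2346, highest in AVP at 3472 CPM, had 3 VAX1 reads. Within prefix, from 6 to 9, r of VAX1 with AVP was 0.740, 0.710, 0.907 and 0.656, and rho was 0.516, 0.169, 0.845 and 0.778. In prefix 7 only calves 1050 and 1360 had VAX1 reads (2 and 1), and calf 1360 had 0 reads of AVP. In prefix 9 only calves 2532 and 2346 had VAX1 reads. Within diets it was 0.750 in HI and 0.575 in MOD. With HCRT, r was 0.220 over all calves (permutation adjusted p = 0.383) and 0.549 without calves 2532 and 911 (adjusted p = 0.00927).

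FOXB1 had no relation that passed the threshold. Its r was 0.10 with AVP, 0.02 with OXT and -0.17 with HCRT (permutation adjusted p = 0.691, 0.903 and 0.507), and rho lay between -0.09 and 0.00. The sign with HCRT turned to 0.01 without the 4 libraries apart. Of all genes, 43.2% had a lower rho with AVP than FOXB1, against 99.6% for NKX2-1 and 99.3% for VAX1.

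Among the transcription factors, NKX2-1 rose with VAX1 (r = 0.698, permutation adjusted p = 0.0018; rho = 0.521, adjusted p = 0.0106). Without calves 2532 and 911, r was 0.408 (permutation adjusted p = 0.0637) and rho 0.390 (adjusted p = 0.0777). These calves are the highest in both genes, so a lower r follows from their choice. It does not decide whether the relation rests on them. Without the 4 libraries apart, r was 0.747 (permutation adjusted p = 0.00204). With 1 calf left out it ranged from 0.548 to 0.762 and passed the threshold in 29 of 29 fits. No relation passed the threshold for FOXB1 with NKX2-1 (r = -0.22, permutation adjusted p = 0.383) or with VAX1 (r = 0.09, adjusted p = 0.691).

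A list of 13 hypothalamic neuropeptide precursors, which includes AVP, OXT and HCRT, was set beside the 3 genes as a description. The diet test called 0 of the 13 in either direction, and their median log2 difference was -0.46 against 0.01 over all genes. Of the 13, 9 are in the list that the study chose on these samples, so that their direction is not independent evidence. NKX2-1 is in the same list, so its shared variation with these 9 is not independent evidence either. The shares over all genes given below do not allow for that choice. AGRP, 1 of the 13, had reads in 6 calves. The rho of NKX2-1 was positive with 13 of 13 and at 0.5 or higher with 6, with a median of 0.464, where 2.47% of all genes reached 0.5 and the median of all genes was 0.03. VAX1 was positive with 12 of 13 and reached 0.5 with 6 (median 0.280; 2.13% of all genes). FOXB1 was positive with 6 of 13 and reached 0.5 with 0 (median -0.05; 4.93% of all genes). PENK, the precursor of the enkephalins, was the most alike to NKX2-1 of the named genes (rho = 0.705), and calves 911 and 2532 were also highest in PENK, at 155 and 136 CPM. TAC1, the precursor of substance P, had a rho of 0.589 with NKX2-1, and CALCB, a calcitonin gene-related peptide, 0.594.

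**Figure D3:**
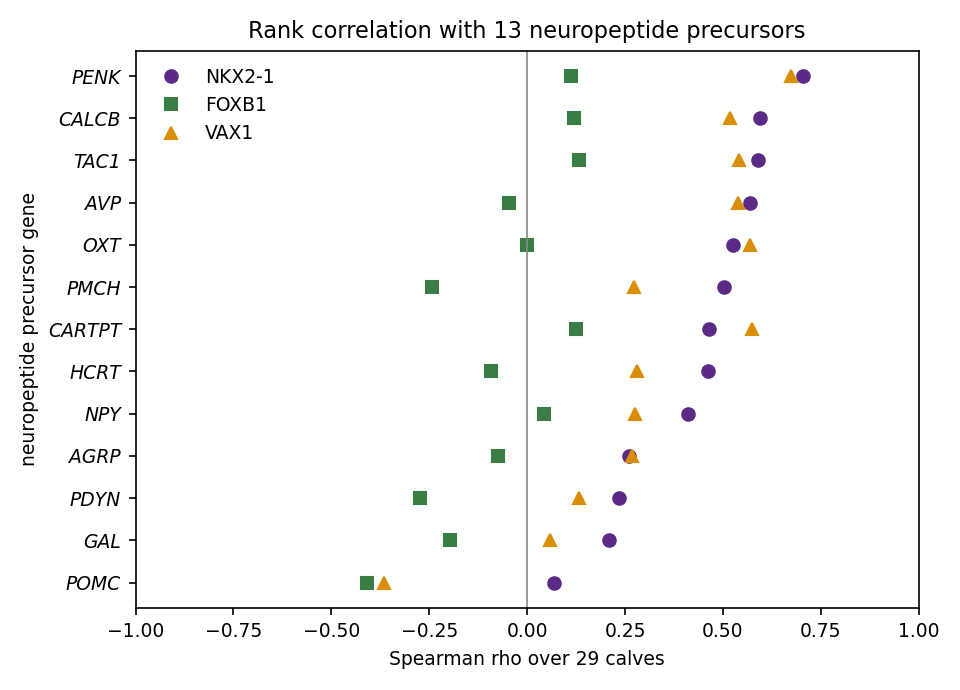
Spearman rho over 29 calves of NKX2-1 (circles), FOXB1 (squares) and VAX1 (triangles) with 13 neuropeptide precursors, sorted by NKX2-1. All 13 values of NKX2-1 are above 0, with PENK highest at 0.705, and 6 of 13 values of FOXB1 are above 0.

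Of 6 other transcription regulators, 0 were called between diets. LHX6, a LIM homeodomain factor of ventral forebrain interneurons, had 11.2 CPM in calf 2532 and 8.48 in calf 911. In the other calves it reached at most 2.41 CPM. Its r with NKX2-1 was 0.75 and its rho 0.495 over all calves. ZIC1, a zinc finger factor of the dorsal neural tube, ran the other way, with a rho of -0.55 with NKX2-1 (3.23% of all genes were at -0.5 or lower) and 19.3 and 10.9 CPM in calves 2532 and 911 against a median of 57.8 CPM. ZIC1 was lower still in calves 1395 and 986, at 5.43 and 5.67 CPM, with NKX2-1 at 0.737 and 2.99 CPM. NKX2-8, the coding gene next to NKX2-1 in assembly ARS-UCD2.0, had a rho of 0.239 with it. It was at 4.59 and 3.51 CPM in calves 2532 and 911, near its median of 3.89 CPM.

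Of 4 neuronal genes, NEFH, a neurofilament subunit, and SV2B, a synaptic vesicle protein, had a rho of -0.51 and -0.65 with NKX2-1. SV2B was at 49.6 and 47.1 CPM in calves 2532 and 911 against a median of 272 CPM, and NEFH at 154 and 207 CPM against 607. GAD2 had a rho of 0.05 and CHGA of -0.30. Across the 13 genes of the neuronal, pituitary, myelin, vascular, meningeal and blood lists, 0 were called between diets, and HBD, a haemoglobin subunit, had the only unadjusted p-value under 0.05 (limma p = 0.0491, adjusted p = 0.999). The part that the mix of regions or cells in each piece has in the NKX2-1 values was not tested.

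**Figure D4:**
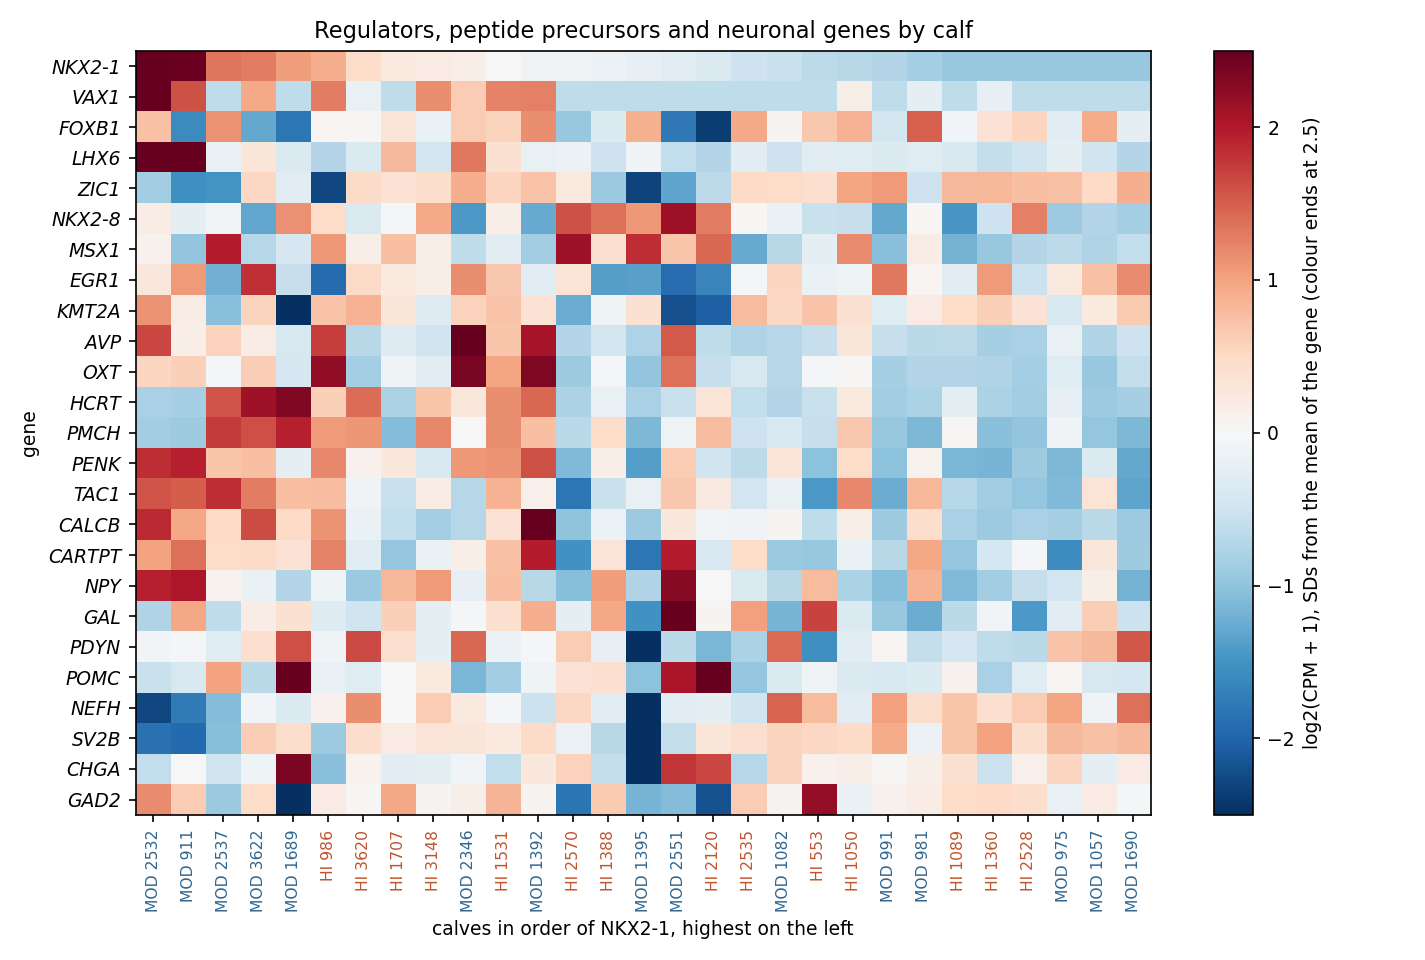
Regulators, neuropeptide precursors and neuronal genes (rows) in 29 calves (columns, ordered by NKX2-1, HI in orange and MOD in blue lettering), coloured by the number of SDs of log2(CPM + 1) from the mean of each gene. LHX6 and PENK are high and SV2B low in calves 2532 and 911, while HCRT and PMCH are high in calves 2537, 3622 and 1689. SV2B is lowest in calf 1395, which has NKX2-1 at the median.

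FOXB1 varied together with properties of the libraries. Its rho with the normalisation factor was 0.544, and 0.333 without the 4 libraries apart. With KMT2A, a histone methyltransferase with a long transcript, r was 0.66 and rho 0.433, and 0.23 and 0.250 without them. With POMC, r was -0.65 and rho -0.41, and -0.08 and -0.13 without them. CLDN5, a tight junction protein of vessels, had an r of -0.53 and a rho of -0.26 with FOXB1, and 0.07 and 0.01 without them. VCAM1, also in the vascular list, had a rho of 0.089 with FOXB1, and 0.182 without them. The rho with ANGPTL7, a meningeal gene, was 0.480 and 0.498, and that with CGA, the pituitary hormone alpha subunit, -0.52 and -0.37 (4.83% of all genes were at -0.5 or lower). With ALDH1A2, also in the meningeal list, it was 0.297 and 0.135, and with PRL, also in the pituitary list, -0.28 and -0.18. The part of these properties in the FOXB1 values was not tested. VAX1 had a rho of -0.59 with KLK6, an oligodendrocyte protease (1.41% of all genes were at -0.5 or lower). With PPP1R14A, also in the myelin list, the rho of VAX1 was -0.27, and -0.08 without the 4 libraries. The rho of VAX1 was 0.497 with the normalisation factor and 0.528 without the 4 libraries, and that of NKX2-1 0.245 and 0.386.

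**Figure D5:**
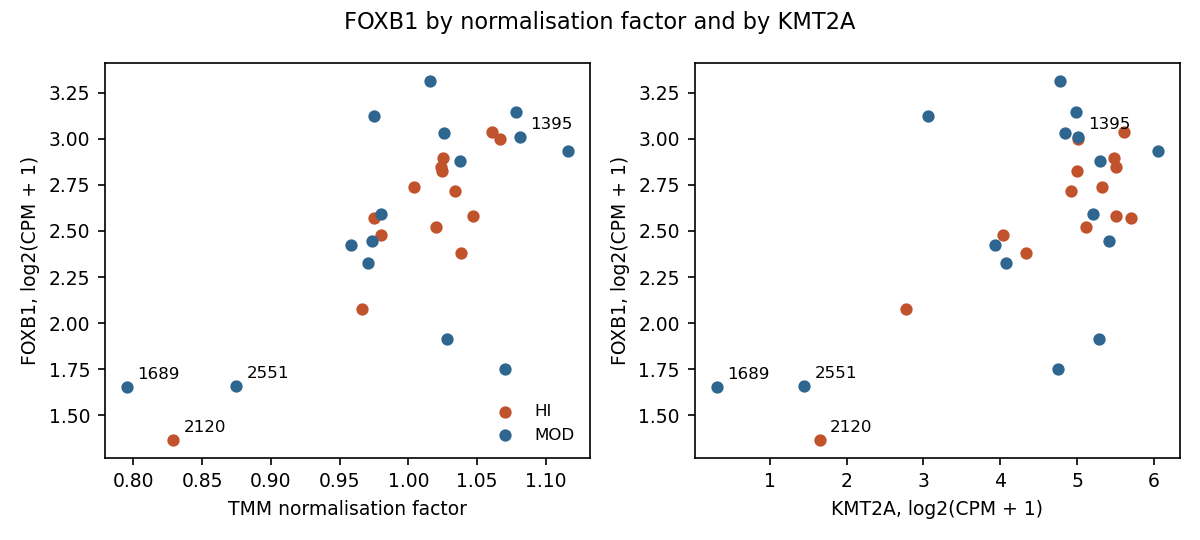
FOXB1 in log2(CPM + 1) against the TMM normalisation factor (left) and KMT2A in log2(CPM + 1) (right) in 29 calves, HI in orange and MOD in blue, with the 4 libraries apart named. Calves 2120, 1689 and 2551 are lowest in FOXB1 (1.58 to 2.15 CPM) and in both quantities on the horizontal axes.

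Among the genes whose identifiers could be named, those most alike to NKX2-1 by rho after PENK were NNAT (0.675), an imprinted gene of neuroendocrine tissue, and TMEM176B (0.649). PENK, NNAT and TMEM176B ranked 5, 10 and 21 among 16573 genes, and the highest rho was 0.824, for a gene without a symbol. For VAX1 they included SYTL5 (0.692) and GABRE (0.690), a GABA-A receptor subunit. For FOXB1 they were SCN7A (0.577), GRIK3 (0.566), a kainate receptor subunit, and RGS14 (0.544), of which SCN7A ranked 313 among all 16573 genes compared. These likenesses are descriptions over 29 calves that share library and depth, and 109 or 110 of the compared genes had a symbol. The symbols come from the supplement of the study, which lists genes chosen by diet in these calves. Likeness among such genes is therefore not independent evidence.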

How the data were processed

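RNA-Seq of the remaining hypothalamus was analysed in 29 calves (14 HI, 15 MOD), grouped by the diet in the labels. Libraries were Illumina TruSeq stranded, and the strand setting of the count is not given in the sources used here. The submitters' processing notes name FastQC 0.11.8, cutadapt 2.6, STAR 2.6.1, R 3.4, edgeR 3.5 and build UMD3.1, and the paper gives other versions of some of these tools. The authors aligned the reads, counted them per gene and deposited a normalised signal, in CPM scaled by TMM factors. All 29 columns were assigned to calves (0 left over).

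From these values, whole reads were recovered for 100% of values (tolerance 0.001 reads, largest deviation 8.14e-05). The main test was limma 3.58.1 with a trend in R 4.3.3 on log2(CPM + 1), over 19525 genes with at least 1 read, without covariates. Tests on recovered reads with edgeR 4.0.16 (quasi-likelihood and exact) and DESeq2 1.42.0, voom weights, RLE factors, other filters, a pseudocount of 0.1, the file-name prefix as a factor and each calf left out were alternatives, and leaving out the 4 libraries apart, or in the diet test the 2 calves farthest in NKX2-1, was chosen after seeing the data. Correlations and spread used 100000 two-sided permutations, exact for 6 calves, in SciPy 1.17.1. In simulated data for HI against MOD, limma called 45 of 50 genes changed 2-fold and 7 of 19051 unchanged genes. The changed genes were drawn among those above 1 CPM in at least 10 calves, whereas VAX1 was above it in 1. The biological coefficient of variation was 1.46 for NKX2-1 and 1.82 for VAX1, against medians of 0.471 and 0.741 in genes of like level. The share called in the simulation therefore does not carry over to these 2 genes. Simulated counts were drawn separately for each gene and calf, without libraries that lie apart over many genes. Whether the share holds for FOXB1 is therefore not known either.

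Symbols came from 114 identifier pairs in the supplement of the study. Genes named are the 3 transcription factors, the neuropeptides, the list genes and, for each transcription factor, the 3 named genes with the highest rho, among genes with reads in at least 15 calves, of which 1 is not reported here. The genes and lists were chosen with earlier results of these data known. The reference table of assembly ARS-UCD2.0 matched 0 identifiers, so no coordinates or sequences are given. Calves are separate animals, and p-values set differences and relations against the variation between them. The paper states that calves were kept in pens by diet after weaning, so effects of pen and diet cannot be told apart. Counting intervals cover counting error only.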

Additional observations from a re-analysis of the deposited data

How the results depend on the processing

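No paired analysis was possible because the labels do not give the blocks (age, weight, sire and farm) used in allocating calves to diets, and the replicate numbers are only an order of accession. The diet test called 0 genes in 11 of 12 alternatives and 2 in the exact test of edgeR (COL15A1 and ENSBTAG00000003260, both higher in HI), and 0 with any calf left out. The log2 difference of FOXB1 turned to -0.0260 in the edgeR quasi-likelihood and -0.0260 in the exact test, -0.0322 in DESeq2 and -0.0036 without calves 2532 and 911, and VAX1 turned to 0.0298 without those 2. With 1 calf left out, the log2 difference ranged from -0.61 to -0.32 for NKX2-1 and from -0.0360 (without calf 1689) to 0.12 (without calf 2120) for FOXB1. For NKX2-1 with AVP, r was 0.407 on deviations from diet means, 0.385 on deviations from prefix means and 0.397 without calves 2532 and 911, none past the threshold, and 0.348 to 0.505 with 1 calf left out, lost in 14 of 29. On diet deviations, on prefix deviations and without those 2 calves, rho was 0.627, 0.527 and 0.522. Each of these passed the threshold (permutation adjusted p = 0.00144, 0.0118 and 0.0227). With a pseudocount of 0.1, r of NKX2-1 was 0.481 with OXT and 0.442 with HCRT, both past the threshold. With 1 calf left out these ranged from 0.354 to 0.444 and from 0.298 to 0.536 (highest without calf 2532). With the pair of calves at the greatest distance from each transcription factor's median left out, r was 0.791 for NKX2-1 with HCRT, 0.549 for VAX1 with HCRT, 0.408 for NKX2-1 with VAX1, -0.0718 for FOXB1 with OXT, 0.0295 for FOXB1 with HCRT and -0.00966 for FOXB1 with VAX1. FOXB1 with OXT was -0.0199 with a pseudocount of 0.1 and -0.0879 to 0.127 with 1 calf left out. Without the 4 libraries apart, r was 0.00967 for FOXB1 with HCRT and -0.0581 for FOXB1 with VAX1. The spread difference, HI minus MOD, without them was -0.627 for NKX2-1 and -0.205 for FOXB1, both past 0.05, and with 1 calf left out ranged from -0.586 to -0.357 and from -0.274 to -0.161, passing 0.05 in 6 of 29 fits for NKX2-1 (without calf 986, 2551, 991, 1082, 1392 or 1395) and in 1 for FOXB1 (permutation p = 0.00599 without calf 2120). The cause of these changes was not tested. VAX1 rests on at most 15 reads in a calf, which limits every value given for it.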
